A study of Canis lupus familiaris with 8 samples.

Results

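MHC class II transcripts were examined in canine TCRαβ+ T cells. The genes were taken by name from the gene list of the libraries, as every symbol that starts with DLA-D plus CD74, which gave 5 of 20257 genes, and all 5 were among the 13155 genes that had UMIs in 3 or more cells of any dog. They are DLA-DRA (ENSCAFG00000000803), DLA-DQA1 (ENSCAFG00000000812), CD74 (ENSCAFG00000018101), DLA-DMB (ENSCAFG00000000848) and DLA-DOA (ENSCAFG00000000896). The list gives beta chain genes by identifier only. DLA-DQB1 (ENSCAFG00000000814) and DLA-DRB1 (ENSCAFG00000000806) are described beside the 5 members, and were added after the gene list had been seen. Identifier ENSCAFG00000000848 is called DLA-DMB in the list of dogs 2 to 4 and DLA-DMA in the list of dog 1, so its values may belong to either chain of DM. In the RefSeq gene table of another assembly (UU_Cfam_GSD_1.0), DLA-DRA, HLA-DRB1, DLA-DQA1 and DLA-DQB1 follow each other, DLA-DMB lies beside DLA-DMA, DLA-DOA lies between BRD2 and COL11A2 on the same chromosome, and CD74 is on another chromosome.

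The cells came from the blood of 4 healthy, routinely vaccinated Beagles, a female of 5 years (dog 1), males of 7 years (dogs 2 and 3) and a male of 9 years (dog 4). TCRαβ+ cells were sorted by flow cytometry and frozen before droplet sequencing of the 5′ ends of transcripts, with 1 gene expression library and 1 V(D)J library per dog. The dog was the replicate, and neither age nor sex was tested, because age and sex cannot be told apart from the individual dog. A transcript molecule is counted once through its unique molecular identifier (UMI).

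MHC class II molecules present peptides from the endosomes to CD4+ T cells. An alpha and a beta chain (DR or DQ) form the presenting molecule, CD74 (the invariant chain) guides it through the cell and fills its groove, DM exchanges the remaining CD74 fragment for peptide, and DO holds DM back. CIITA is the master switch of their transcription. Class II is the hallmark of B cells, dendritic cells and macrophages, resting mouse T cells lack it, activated human T cells gain it, and resting canine T cells are known to carry it at their surface.

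The gene list of dog 1 has 27980 lines for a matrix of 20257 rows, so the rows of dog 1 were named with the list of the other dogs, which has 20257. Under that list the log totals of genes in dog 1 correlated at 0.989 to 0.991 with those of the other dogs, and results that are lost without dog 1 are given below. In all, 31909 of 33125 cell barcodes had 500 to 20000 UMIs and at most 10% mitochondrial UMIs, with 7096 to 8454 cells and a median of 3599 to 3931.5 UMIs per dog. Of the barcodes, 545 occurred in more than 1 library. A cell was called CD4 single-positive (sp) with at least 1 CD4 UMI and no CD8A UMI, which held for 13247 cells (2716 to 3658 per dog), and CD8A sp in the opposite case, which held for 6427 cells (691 to 2280 per dog). A further 11510 cells had neither and 725 had both. The T cell marker CD3E was detected in 95.1% of cells. Of 10 B cell markers, CD79A was found in 98.8% of cells and was set aside. The other 9 reached at most 1.33% of cells each, and PAX5, CD22 and FCRLA were at 0. Of 9 monocyte and dendritic cell markers listed, none exceeded 0.191% of cells and 5 were at 0 (CSF1R, FCGR1A, VCAN, AIF1 and MARCO).

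Class II transcripts were present in nearly every T cell. The 5 members together made up 0.550%, 0.685%, 0.664% and 0.849% of the UMIs of dogs 1 to 4, and only 63 of 31909 cells had no UMI of any member. Exactly 3, 4 and 5 of the members were detected in 42.3%, 35.1% and 0.453% of CD4 sp cells and in 37.5%, 46.1% and 3.19% of CD8A sp cells. A UMI of DLA-DRA was found in 96.6% (CD4 sp) and 96.5% (CD8A sp) of cells, and of CD74 in 99.9% of CD4 sp cells (means of 4 dogs). For DLA-DQA1 the shares were 71.8% and 78.4%, for DLA-DMB 42.3% and 55.2%, and for DLA-DOA 1.80% and 7.47%. Median depth was 3747 to 4091.5 UMIs in CD4 sp and 3586.5 to 3932 in CD8A sp cells. Thinning to 2000 UMIs left out the cells with fewer, so that 27160 of 31909 cells remained, with gates set on all their UMIs. In these thinned cells the shares were 90.5% and 93.9% for DLA-DRA, 53.0% and 62.6% for DLA-DQA1, 25.6% and 37.9% for DLA-DMB and 0.968% and 4.20% for DLA-DOA. No cell type known to lack class II was sorted here, so a background share from free RNA could not be set beside these values.

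Levels were also set side by side for cells with and without a UMI of a B cell or myeloid marker. The 1503 cells with one (4.71%) had 1441 ± 185 DLA-DRA CPM (UMIs of the gene per 1000000 UMIs of a sum, mean ± SD, n = 4 dogs, UMIs summed over cells), against 1535 ± 264 CPM in the cells without such a marker. For CD74 the values were 4318 ± 666 and 4643 ± 810 CPM, and for DLA-DQA1 457 ± 108 and 520 ± 135 CPM. All 3 genes were lower in the cells with a marker in each of the 4 dogs, a difference within dogs that was not tested. Over thinned CD4 sp cells, the 1% of cells richest in DLA-DRA held 3.58% of its UMIs, and for CD74 the share was 3.01%. For the rare DLA-DOA the richest 1% held 88.7% of UMIs in CD4 sp cells and 35.7% in CD8A sp cells. With only 0.0104 and 0.0472 DLA-DOA UMIs per thinned cell, these shares largely follow from how rarely it was detected. They are no measure of its concentration in few cells. The variance of its counts was 1.03 (CD4 sp) and 1.26 (CD8A sp) times the mean.

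The first comparison asked whether CD4 and CD8A sp cells differ in class II transcripts, dog by dog. DLA-DRA, the alpha chain of DR, was at 1208, 1371, 1544 and 1942 CPM in the CD4 sp cells of dogs 1 to 4 (1516 ± 315) and at 1576, 1553, 1547 and 1759 CPM in their CD8A sp cells (1609 ± 101). The groups overlapped, dogs 1 and 2 being lower in CD4 sp cells, dog 3 nearly equal and dog 4 higher. The log2 fold change, positive where CD4 sp cells are higher, was -0.09 ± 0.0732 (SE; adjusted p = 0.390, edgeR's quasi-likelihood test with the dog as a block and Benjamini-Hochberg adjustment over all genes tested, as in every test here). DLA-DQA1, the alpha chain of DQ, was at 326, 487, 433 and 680 CPM in CD4 sp cells (481 ± 148) and at 544, 632, 523 and 671 CPM in CD8A sp cells (592 ± 70.8). It was lower in the CD4 sp cells of dogs 1 to 3 and slightly higher in dog 4, and the groups overlapped. Its log2 fold change of -0.33 ± 0.0979 passed the threshold narrowly (adjusted p = 0.0407). The call was lost without dog 1 (adjusted p = 0.0814), without dog 2 (0.148) and without dog 3 (0.0925).

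DLA-DQB1, the beta chain that pairs with DLA-DQA1, was at 715, 1063, 946 and 1307 CPM in CD4 sp cells and at 1199, 1366, 1150 and 1403 CPM in CD8A sp cells. It was lower in the CD4 sp cells of every dog, although the ranges overlapped between dogs (log2 fold change -0.36 ± 0.0854, adjusted p = 0.0159). In cells without a UMI of CCR7, FOXP3, GZMB or MKI67 the call was lost (-0.18 ± 0.0747, adjusted p = 0.163). DLA-DRB1 had 103 UMIs in all cells (0.818 ± 0.0793 CPM) and was too rare to be tested in 8 of the 9 comparisons. In the remaining one, CD8A sp cells with and without FOXP3, it rested on 3 UMIs against 16 (adjusted p = 0.640). The invariant chain CD74 was at 3508, 4649, 4427 and 5876 CPM in CD4 sp cells (4615 ± 975) and at 4625, 5115, 4325 and 5082 CPM in CD8A sp cells (4787 ± 380). Dogs 1 and 2 were lower and dogs 3 and 4 higher in CD4 sp cells, and the log2 fold change was -0.06 ± 0.0814 (adjusted p = 0.625).

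The accessory genes differed more. DLA-DMB was at 98.4, 173, 160 and 239 CPM in CD4 sp cells and at 235, 259, 218 and 280 CPM in CD8A sp cells. All 4 dogs were lower in CD4 sp cells, with overlap between the groups, and the log2 fold change was -0.60 ± 0.134 (adjusted p = 0.0121). Without dog 2 neither DLA-DMB (adjusted p = 0.0517) nor DLA-DQB1 (0.0697) passed. DLA-DOA, the alpha chain of DO, was at 6.53, 4.89, 6.0 and 1.84 CPM in CD4 sp cells (262 UMIs) and at 28.3, 24.8, 29.1 and 14.4 CPM in CD8A sp cells (604 UMIs). The lowest CD8A sp value lay above the highest CD4 sp value, and the log2 fold change was -2.36 ± 0.137 (adjusted p = 1.55e-05). In this comparison 3 of the 5 members were thus called lower in CD4 sp cells and 0 higher, where 13.5% of 10120 genes tested were called lower and 13.6% higher. The median log2 fold change was -0.33 over the members and 0.00 over all genes. Summed CPM of the 9 B cell markers was 8.48 to 17.1 in CD4 sp and 7.96 to 11.8 in CD8A sp cells, and the part of such cells in these differences was not tested beyond the alternatives given under the processing.

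**Figure D1:**
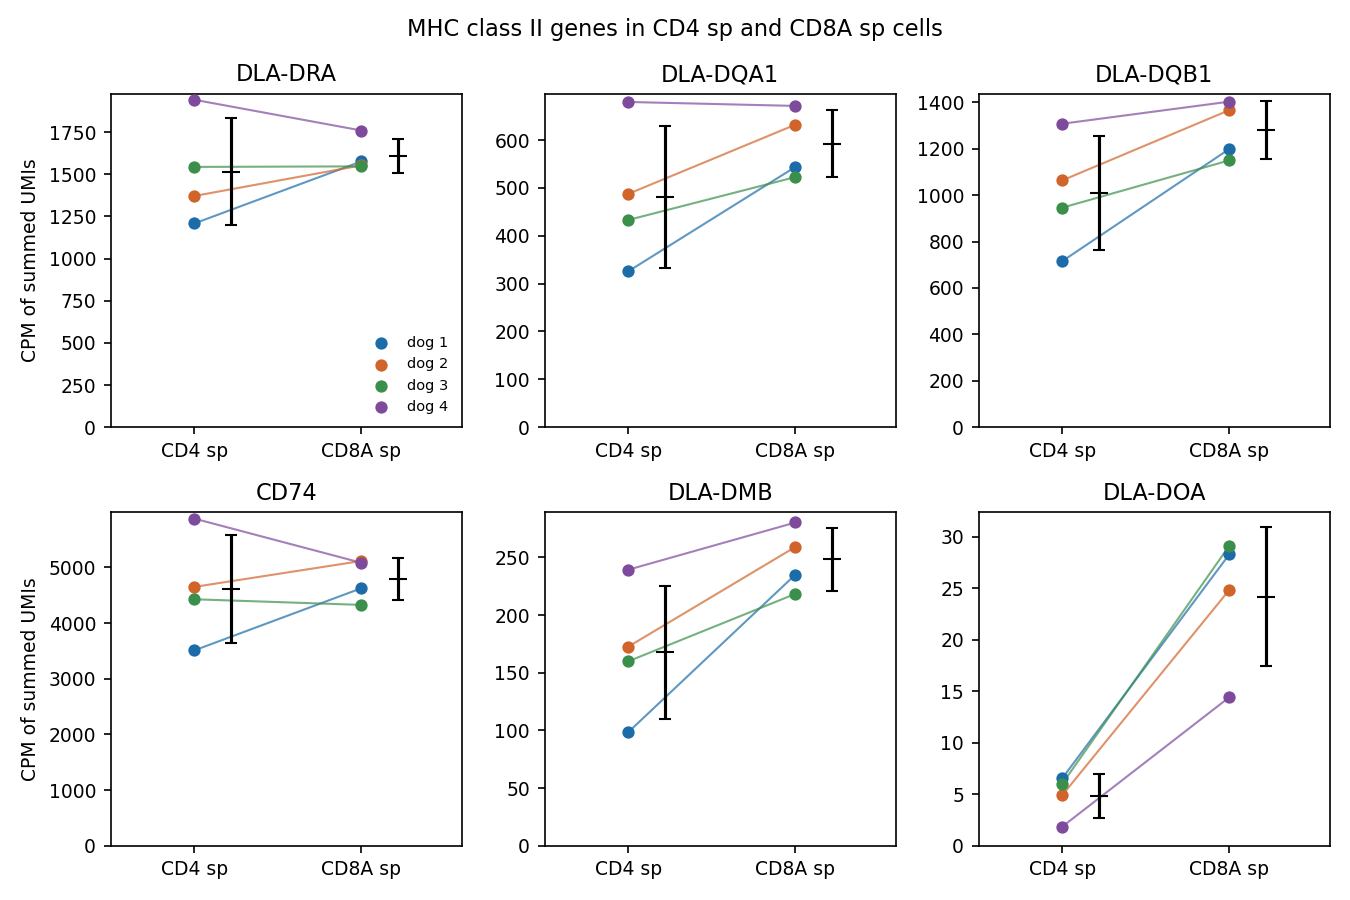
CPM (linear axes from 0) of 6 class II genes in the summed CD4 sp and CD8A sp cells of each dog, with lines joining the values of a dog and black marks giving the mean ± SD of 4 dogs. The DLA-DOA values do not overlap between the groups (at most 6.53 against at least 14.4 CPM), while DLA-DRA and CD74 fall in dog 4 and rise in dog 1 from CD4 sp to CD8A sp cells.

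For DLA-DRA, DLA-DQA1, DLA-DQB1, CD74 and DLA-DMB the SD over dogs was larger in CD4 sp than in CD8A sp cells, a difference in spread that was not tested. In CD4 sp cells dog 1 was lowest and dog 4 highest for DLA-DRA, DLA-DQA1, DLA-DQB1, CD74 and DLA-DMB alike, and for DLA-DOA dog 1 was highest and dog 4 lowest. The same dogs were at the ends for DLA-DRA, DLA-DQA1 and CD74 within CD4 sp cells with CCR7 and within those without it. The DLA-DQA1 level of dog 4 was 588 CPM against 276 CPM in dog 1 in the first set, and 716 against 372 CPM in the second. Dog 4 was the oldest dog and also had the smallest share of CCR7+ cells (26.2% of CD4 sp cells, against 41.5% to 46.6% in the other dogs). A trend with age was not tested, because age cannot be told apart from the individual dog.

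Because CCR7+ cells were more frequent among CD4 sp cells, the lineages were also compared within each CCR7 class, a choice made after seeing the data. Among CCR7+ cells all 6 genes were lower in CD4 sp cells, including DLA-DRA (log2 fold change -0.15 ± 0.0431, adjusted p = 0.0313) and CD74 (-0.17 ± 0.0403, adjusted p = 0.0108), which were not called over all cells. DLA-DOA differed by -3.26 ± 0.194 there (adjusted p = 9.37e-11). Of the 8712 genes tested among CCR7+ cells, 644 were called, and 48.1% of these calls were higher in CD4 sp cells. Among CCR7- cells, DLA-DOA (-2.43 ± 0.160, adjusted p = 9.72e-06), DLA-DMB (-0.46 ± 0.124, adjusted p = 0.0256) and DLA-DQB1 (-0.30 ± 0.0851, adjusted p = 0.0321) were lower in CD4 sp cells, whereas DLA-DQA1 (-0.22 ± 0.0907, adjusted p = 0.118), DLA-DRA (-0.04 ± 0.0724, adjusted p = 0.755) and CD74 (0.02 ± 0.0776, adjusted p = 0.901) were not called. Here 2 members were called, where 2417 of 9807 genes tested among CCR7- cells were, 51.6% of these calls being higher in CD4 sp cells. Whether the lineage difference itself differed between CCR7+ and CCR7- cells was tested through the interaction given below, in which no member passed.

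CCR7, a homing receptor to lymph nodes, is carried by naive and central memory T cells, and the second comparison set CCR7+ (at least 1 UMI) against CCR7- cells of the same dog. In CD4 sp cells, 4 members were lower and DLA-DOA was higher in CCR7+ cells. DLA-DRA was at 1141, 1227, 1456 and 1833 CPM in CCR7+ and at 1272, 1479, 1616 and 1985 CPM in CCR7- cells of dogs 1 to 4. It was lower in the CCR7+ cells of every dog although the spread between dogs was larger than the shift (log2 fold change -0.14 ± 0.0289, adjusted p = 0.00192). DLA-DQA1 shifted further, from 372, 564, 499 and 716 CPM in CCR7- to 276, 385, 353 and 588 CPM in CCR7+ cells. Again all 4 dogs fell and the groups overlapped (log2 fold change -0.41 ± 0.0385, adjusted p = 1.36e-06).

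DLA-DQB1 was at 893 ± 207 CPM in CCR7+ and 1086 ± 250 CPM in CCR7- CD4 sp cells and was lower in 4 of 4 dogs (log2 fold change -0.25 ± 0.0287, adjusted p = 1.07e-05). CD74 was at 3184, 4071, 4062 and 5535 CPM in CCR7+ and at 3816, 5080, 4730 and 6012 CPM in CCR7- cells. It fell in each dog by less than the gap between dogs 1 and 4 (log2 fold change -0.20 ± 0.0286, adjusted p = 8.85e-05). DLA-DMB was at 77.8, 127, 117 and 205 CPM in CCR7+ and at 118, 207, 196 and 253 CPM in CCR7- cells. It too fell in each dog (log2 fold change -0.55 ± 0.0570, adjusted p = 3.84e-06).

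DLA-DOA went the other way, at 8.64, 6.78, 9.72 and 2.58 CPM in CCR7+ and at 4.52, 3.49, 2.91 and 1.55 CPM in CCR7- CD4 sp cells, from 165 and 97 UMIs. It was higher in the CCR7+ cells of every dog, with overlap owing to dog 4 (log2 fold change 1.15 ± 0.197, adjusted p = 0.000424). Among the 9678 genes tested, 13.0% were called lower and 10.1% higher in CCR7+ cells, against 4 and 1 of the 5 members, with a median log2 fold change of -0.20 over the members and 0.01 over all genes. These calls rest on the comparison within dogs: without the dog as a block the 6 adjusted p-values were 0.301 to 0.738. Median depth was 3841 to 4330 UMIs in CCR7+ and 3634.5 to 4065.5 in CCR7- CD4 sp cells, and with cells thinned to 2000 UMIs the calls of DLA-DRA, DLA-DQA1, DLA-DQB1, DLA-DMB and CD74 held, while DLA-DOA was too rare to be tested. Summed B cell markers were at 8.52 to 18.7 CPM in CCR7+ and at 8.46 to 15.6 CPM in CCR7- CD4 sp cells.

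The DQ and DM genes shifted with CCR7 in CD8A sp cells as well, while DLA-DRA and CD74 were not called. DLA-DQA1 was at 377, 412, 429 and 577 CPM in CCR7+ and at 578, 684, 543 and 678 CPM in CCR7- cells. It was lower in CCR7+ cells of every dog, and only dog 4 of the CCR7+ group reached into the range of the CCR7- group (log2 fold change -0.37 ± 0.0753, adjusted p = 0.000963). This call was lost with thinned cells (log2 fold change -0.18, adjusted p = 0.331) and without dog 2 (-0.28, adjusted p = 0.0629). DLA-DQB1 was at 888, 1082, 948 and 1238 CPM against 1263, 1434, 1193 and 1414 CPM. It was lower in all 4 dogs (log2 fold change -0.25 ± 0.0588, adjusted p = 0.00351), although not past the threshold without dog 2 (adjusted p = 0.0798). DLA-DMB was at 130, 161, 159 and 245 CPM against 257, 282, 231 and 283 CPM, lower in 4 of 4 dogs (log2 fold change -0.51 ± 0.0921, adjusted p = 0.000316).

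DLA-DRA was at 1339, 1393, 1548 and 1757 CPM in CCR7+ and at 1625, 1591, 1547 and 1759 CPM in CCR7- CD8A sp cells. Dogs 1 and 2 were lower in CCR7+ cells and dogs 3 and 4 were nearly equal (log2 fold change -0.01 ± 0.0582, adjusted p = 0.938). For CD74, at 3849, 4519, 4485 and 5285 CPM against 4785, 5257, 4291 and 5068 CPM, the same dogs 1 and 2 were lower and dogs 3 and 4 higher (log2 fold change 0.00 ± 0.0585, adjusted p = 0.988). DLA-DOA was at 55.9, 62.0, 82.9 and 64.1 CPM in CCR7+ cells, from 262 UMIs, and at 22.6, 16.0, 17.6 and 11.0 CPM in CCR7- cells, from 342 UMIs. The groups were far apart, and the log2 fold change was 2.18 ± 0.155 (adjusted p = 8.26e-10). A DLA-DOA UMI was found in 24.1% of CCR7+ and 5.05% of CCR7- CD8A sp cells, or 12.0% and 3.14% of thinned cells, with median depths of 4181 to 5061.5 and 3452.5 to 3856 UMIs before thinning.

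Of the 5 members, 2 were called lower and 1 higher in CCR7+ CD8A sp cells, where 8.50% of 8233 genes were called lower and 8.31% higher, and the median log2 fold change was -0.01 over the members and 0.01 over all genes. Summed B cell markers were at 7.77 to 20.7 CPM in CCR7+ and 7.32 to 12.1 CPM in CCR7- cells. The difference between the CCR7 changes of CD4 sp and CD8A sp cells was tested as an interaction, and 0 of 5 members passed (2.46% of 9992 genes did, 0 members with DESeq2). Only DLA-DOA had an unadjusted p below 0.05, with a log2 difference of -0.92 ± 0.298, CD4 sp minus CD8A sp (adjusted p = 0.128). For DLA-DRA and CD74, the interaction was -0.10 ± 0.0923 and -0.16 ± 0.102, so a CCR7 change particular to CD4 sp cells was not shown.

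**Figure D2:**
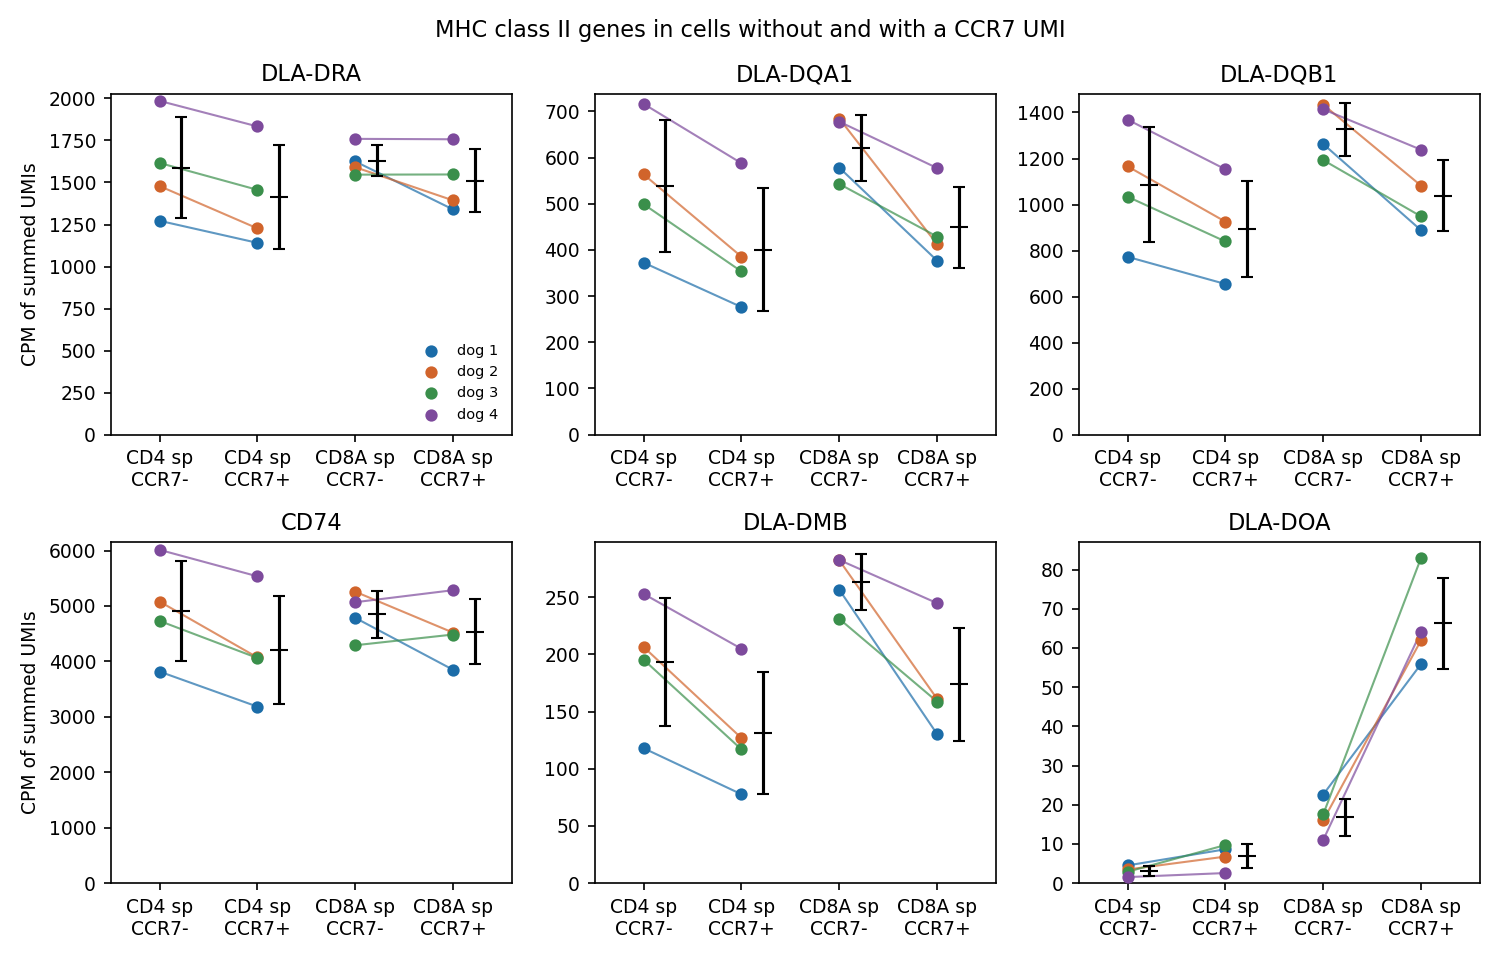
CPM of 6 class II genes in CCR7- and CCR7+ cells of the CD4 sp and CD8A sp gates, summed per dog, on linear axes from 0. Lines join the values of a dog and black marks give the mean ± SD of 4 dogs. DLA-DQA1, DLA-DQB1 and DLA-DMB fall and DLA-DOA rises with CCR7 in every dog of both lineages, DLA-DOA to 66.2 ± 11.7 CPM in CCR7+ CD8A sp cells.

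Granzyme B (GZMB) is a protease of cytotoxic granules. It was detected in 305 CD4 sp cells (32 to 103 per dog) and in 3931 CD8A sp cells. DLA-DMB was at 175, 197, 196 and 334 CPM in GZMB+ and at 97.5, 172, 159 and 236 CPM in GZMB- CD4 sp cells. It was higher in the GZMB+ cells of each dog, with overlap, and dog 4 stood above the others in both groups (log2 fold change 0.37 ± 0.0981, adjusted p = 0.00494). DLA-DQB1 was at 839, 1206, 1107 and 1587 CPM against 714, 1057, 940 and 1298 CPM and was likewise higher in each dog (log2 fold change 0.21 ± 0.0576, adjusted p = 0.00794). DLA-DMB was the only member called, 1 of 5 higher where 5.91% of 9504 genes were, and 0 lower where 3.69% were. Both calls were lost, among other settings, with cells thinned to 2000 UMIs (log2 fold changes 0.42 and 0.16, adjusted p = 0.579 and 0.863), with gates at 2 UMIs (0.858 and 0.889) and without dog 4 (0.123 and 0.158). CD74 was at 5010 ± 719 against 4606 ± 978 CPM (log2 fold change 0.10 ± 0.0448, adjusted p = 0.199), and DLA-DRA at 1506 ± 355 against 1516 ± 315 CPM (-0.04 ± 0.0545, adjusted p = 0.776).

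Among CD8A sp cells, DLA-DQB1 was at 1319, 1536, 1259 and 1424 CPM with GZMB and at 1057, 1173, 982 and 1369 CPM without it. All 4 dogs were higher with GZMB, dog 4 by the least (log2 fold change 0.25 ± 0.0595, adjusted p = 0.00916). DLA-DMB was at 267, 295, 237 and 278 CPM against 197, 218, 190 and 283 CPM. Dogs 1 to 3 were higher and dog 4 was slightly lower with GZMB, and the log2 fold change of 0.25 ± 0.0733 (adjusted p = 0.0285) was lost with thinned cells (adjusted p = 0.287), with DESeq2 (0.144) and without dog 1 (0.0790), dog 2 (0.182) or dog 3 (0.0905). The DLA-DQB1 call was lost without dog 2 (adjusted p = 0.103) or dog 3 (0.0581). DLA-DOA was at 11.7, 17.2, 18.2 and 12.0 CPM in GZMB+ and at 48.1, 33.5, 45.8 and 18.2 CPM in GZMB- cells. Every dog was lower with GZMB, and dog 4 had the smallest gap (log2 fold change -1.20 ± 0.173, adjusted p = 0.000246). The GZMB- cells include CCR7+ cells, in which DLA-DOA was higher. Among cells without MKI67 or FOXP3, those with GZMB had 8.49, 18.5, 17.4 and 11.7 DLA-DOA CPM in dogs 1 to 4. Those without GZMB or CCR7 had 45.6, 19.3, 21.8 and 9.51 CPM. Dogs 1 to 3 were lower and dog 4 was higher with GZMB there, and the mean paired difference was smaller than its SD over dogs. This narrower comparison was not tested. Between all GZMB+ and GZMB- CD8A sp cells, 1 of 5 members was called higher and 1 lower, with 9.24% and 8.84% of 8960 genes. The median log2 fold change was 0.03 over the members and -0.01 over all genes. Median depth was 3313 to 3815 UMIs in GZMB+ and 4060 to 4240 in GZMB- cells. DLA-DRA (0.04 ± 0.0603, adjusted p = 0.694), DLA-DQA1 (0.03 ± 0.0727, adjusted p = 0.863) and CD74 (-0.05 ± 0.0664, adjusted p = 0.684) were not called.

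FOXP3 is the lineage factor of regulatory T cells, which carry class II in part of the human population. In the 622 FOXP3+ CD4 sp cells DLA-DRA was at 1436, 1282, 1572 and 1565 CPM, against 1200, 1378, 1541 and 1964 CPM in FOXP3- cells. Dogs 1 and 3 were higher and dogs 2 and 4 lower with FOXP3 (log2 fold change -0.04 ± 0.0742, adjusted p = 0.801). DLA-DQA1 was at 446, 452, 502 and 535 CPM against 321, 490, 426 and 688 CPM, with the dogs split in the same way (0.04 ± 0.0899, adjusted p = 0.840). The FOXP3+ values of the 4 dogs lay closer together than the FOXP3- values for DLA-DRA (SD 136 against 327 CPM), DLA-DQA1 (42.4 against 154) and CD74 (300 against 1012). For DLA-DOA they lay further apart (3.80 against 2.01), and the difference in spread was not tested. No member was called in edgeR's test or with DESeq2 and none had an unadjusted p below 0.05 (8.08% of 9545 genes were called higher and 5.05% lower). Of the CD8A sp cells 86 had FOXP3, 1 of them in dog 1, which was left out of the fit. DLA-DRA was at 1524, 1682 and 2090 CPM in those of dogs 2 to 4 (log2 fold change 0.09 ± 0.115, adjusted p = 0.990). Again 0 of 5 members were called or had an unadjusted p below 0.05, with 0.484% of 8880 genes called higher and 0.766% lower, and DESeq2 called 0.

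MKI67 marks cells in division. The 344 MKI67+ CD4 sp cells had 1169, 1440, 1513 and 1878 DLA-DRA CPM, against 1210, 1367, 1545 and 1944 CPM in MKI67- cells, higher in dog 2 and lower in the others (log2 fold change -0.05 ± 0.0608, adjusted p = 0.611). DLA-DQA1 (-0.04 ± 0.0738, adjusted p = 0.714), CD74 (0.03 ± 0.0546, adjusted p = 0.685) and DLA-DMB (0.22 ± 0.0928, adjusted p = 0.0733) were not called. None of these 4 members was called with DESeq2 either, and only DLA-DMB had an unadjusted p below 0.05, where 15.3% of 9588 genes were called higher and 12.9% lower. DLA-DOA passed the filter on low counts only through MKI67- cells, so its lower level (adjusted p = 0.00389) is given as a description. It rests on 1 UMI in MKI67+ cells against 261 UMIs in MKI67- cells, a ratio of pooled CPM of 0.0838 (95% counting interval 0.00211 to 0.471, which covers counting error only). Dogs 1, 3 and 4 had no UMI there, which allows up to 4.80, 7.69 and 5.75 CPM at 3 UMIs. With thinned cells, without cells with a B cell or myeloid marker and without cells of more than 1 TRB chain, the gene was too rare to be tested.

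In CD8A sp cells MKI67 was detected in 154 cells (median 6074.5 to 8559 UMIs, against 3569 to 3888.5 without it), and 0 of 5 members were called in edgeR's test or with DESeq2 (14.0% of 7997 genes were called higher and 11.3% lower). DLA-DQA1 was at 491, 538, 470 and 597 CPM with MKI67 and at 547, 639, 524 and 675 CPM without it. It was lower in 4 of 4 dogs and just missed the threshold (log2 fold change -0.22 ± 0.0815, adjusted p = 0.0548, the only unadjusted p below 0.05). It passed with gates at 2 UMIs (-0.38, adjusted p = 0.0103), with no filter on low counts (-0.29, 0.0112) and without cells of more than 1 TRB chain (-0.23, 0.0455). The FOXP3, GZMB and MKI67 changes were not shown to differ between the lineages for any member, where 0.960%, 2.03% and 0.701% of genes passed the interaction. Members with an unadjusted p below 0.05 numbered 0, 0 and 1, the last being DLA-DOA with MKI67 (adjusted p = 0.0952), and DESeq2 called 0 in each. This DLA-DOA value rests on 1 UMI in MKI67+ CD4 sp cells and is a description only.

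**Figure D3:**
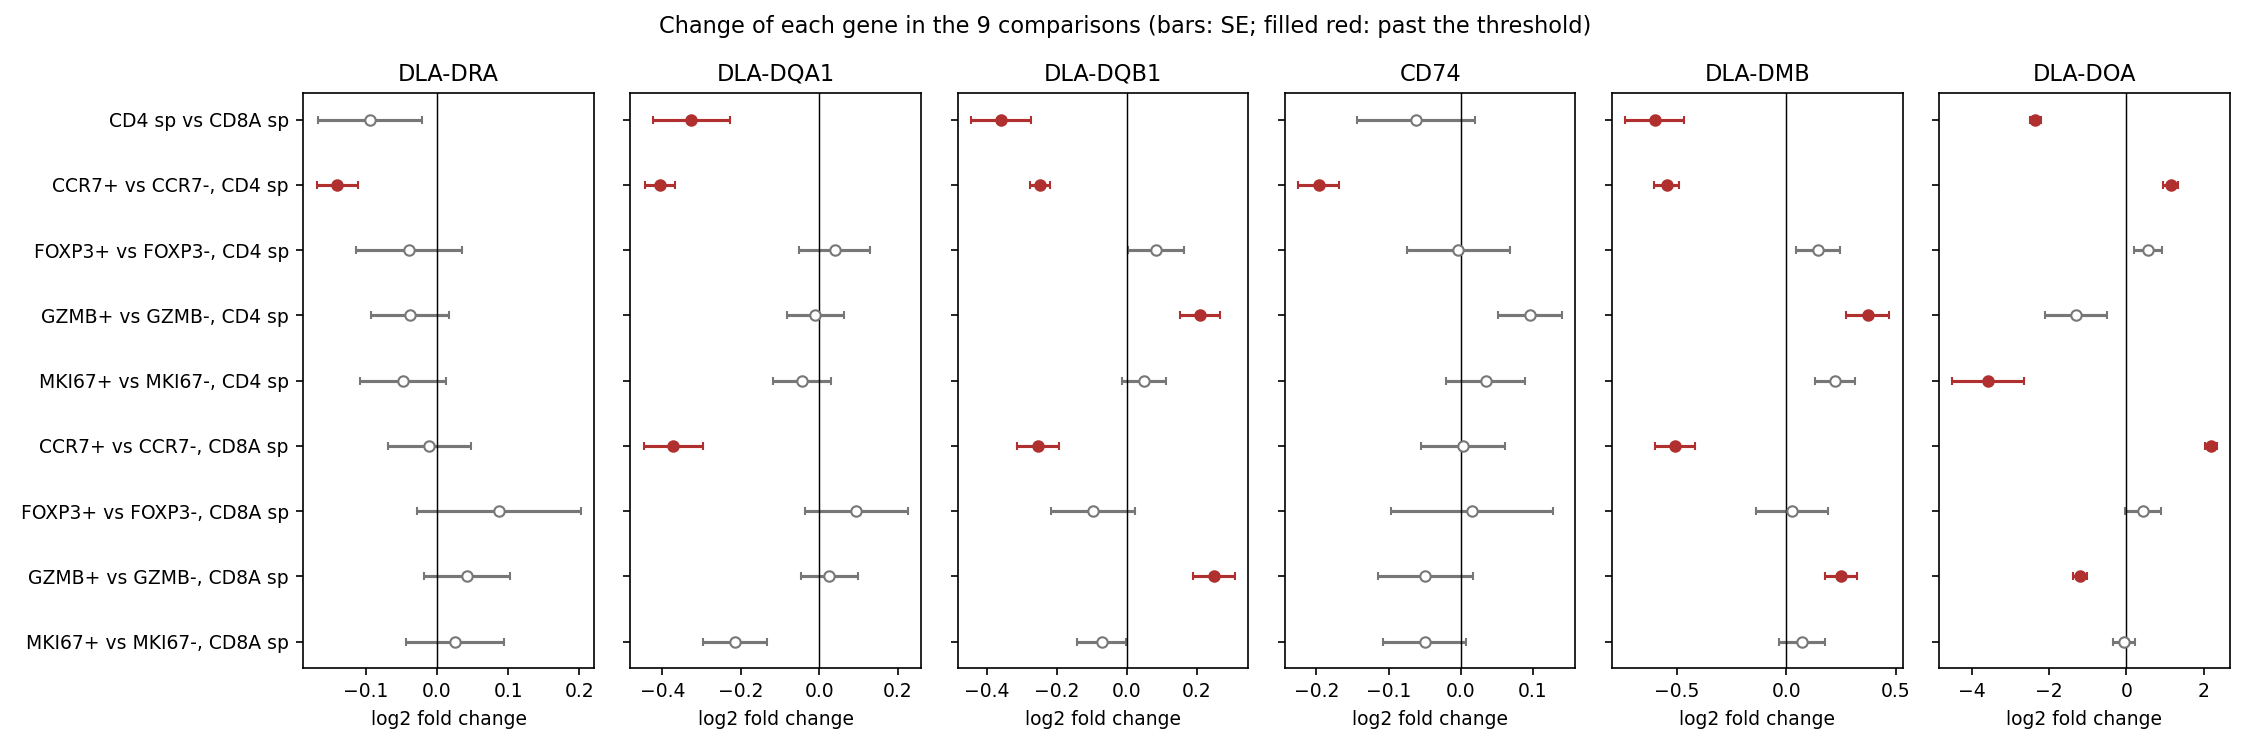
Log2 fold change with its SE (bars) of 6 class II genes in the 9 comparisons, each panel with its own scale. Filled red points passed an adjusted p of 0.05, and most of these lie in the rows of CD4 sp against CD8A sp cells and of CCR7+ against CCR7- cells, while none lies in the rows of FOXP3. The red DLA-DOA point of MKI67 in CD4 sp cells rests on 1 UMI in MKI67+ cells and is a description only.

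To set the gates side by side without shared cells, the sp cells were divided in the order MKI67, FOXP3, GZMB, CCR7 and none of these. Over the 10 classes the mean DLA-DRA level ran from 1775 ± 288 CPM in CD8A sp FOXP3 cells (3 dogs) to 1423 ± 321 CPM in CD4 sp CCR7 cells. Of the 9 steps between neighbours in this order, only that between the CD4 sp cells without a gate gene (1595 CPM) and the CD4 sp MKI67 cells (1500 CPM) was larger than the SD of its paired differences over dogs. DLA-DQA1 ran from 669 ± 104 CPM in CD8A sp FOXP3 cells (3 dogs) to 399 ± 135 CPM in CD4 sp CCR7 cells, and no step exceeded that spread. The next class by mean was CD8A sp cells without a gate gene (644 ± 101 CPM, 4 dogs). Within the 3 dogs the FOXP3 class minus that class was -3.22 ± 56.9 CPM, so the top rank of the FOXP3 class does not hold there. CD74 ran from 5042 ± 826 CPM in CD4 sp GZMB cells to 4194 ± 989 CPM in CD4 sp CCR7 cells. By mean, the CCR7 class was the lowest of the CD4 sp classes and of the CD8A sp classes for all 3 genes. This order did not hold in every dog, since in dog 4 the CD4 sp FOXP3 class was lower than the CCR7 class for DLA-DRA (1561 against 1861 CPM), DLA-DQA1 (579 against 589 CPM) and CD74 (4869 against 5546 CPM). CPM are scaled to the totals of a sum, whereas the tests use TMM. Between CCR7+ and CCR7- CD8A sp cells the mean log2 CPM ratio was -0.12 for DLA-DRA and -0.10 for CD74. The test gave -0.01 and 0.00, so the low CPM of these genes in the CD8A sp CCR7 class depends on the scaling. DLA-DOA stood out by a single class, at 75.7 ± 19.2 CPM in CD8A sp CCR7 cells against 31.7 ± 10.1 CPM in the next and 0.293 ± 0.586 CPM in the lowest, CD4 sp MKI67 cells.

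**Figure D4:**
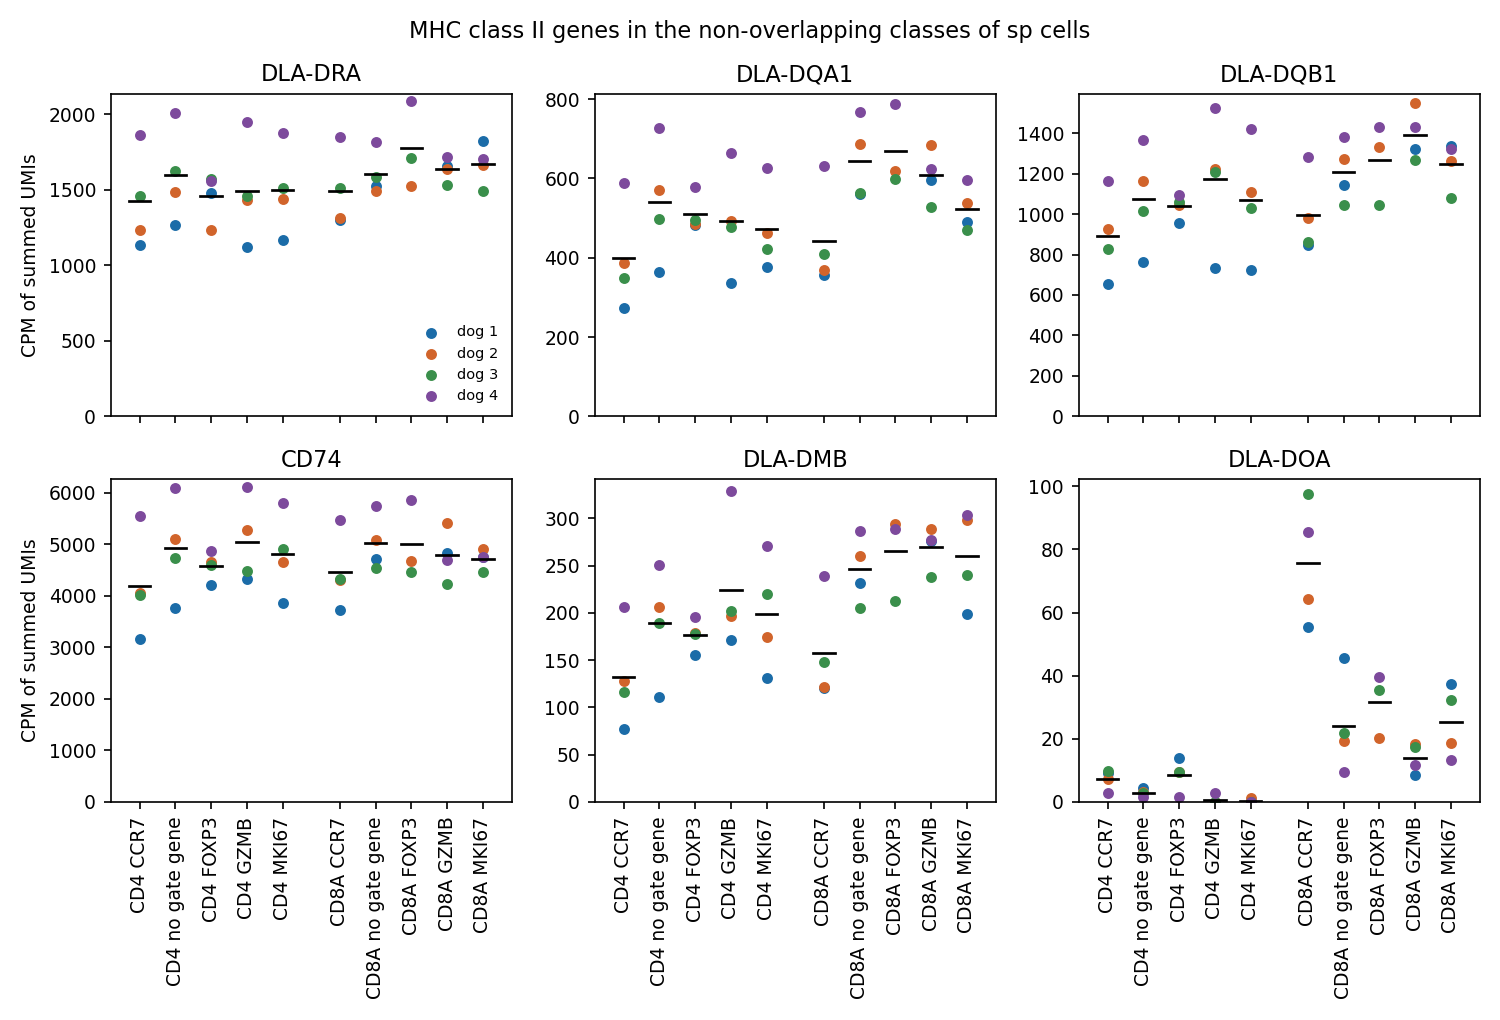
CPM of 6 class II genes in 10 non-overlapping classes of CD4 sp and CD8A sp cells, with a point per dog and a bar at the mean (CD8A sp FOXP3 cells, 3 dogs). The CCR7 class has the lowest mean of its lineage for DLA-DRA, DLA-DQA1, DLA-DQB1, CD74 and DLA-DMB, and for DLA-DOA the CD8A sp CCR7 class is the highest of all 10.

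Gates on further genes were described without a test. In CD4 sp cells with CD69, an early activation marker, DLA-DRA was at 1489 ± 321 CPM, and in those without it at 1550 ± 316 CPM. The CD8A sp values were 1614 ± 101 and 1602 ± 107 CPM. These SDs are between dogs, and the difference within dogs between cells with and without CD69 was not tested. CD4 sp cells with KLRK1, the activating receptor NKG2D, had 613, 623, 578 and 801 DLA-DQA1 CPM. All 4 values were above those of all CD4 sp cells of the same dog, by the most in dog 1, where the gate held 26 cells. CD8A sp cells with FCER1G and TOX but no GZMB had the highest mean DLA-DQA1 (728 ± 88.9 CPM) and DLA-DMB (332 ± 37.1 CPM) of the gates described, with 618, 695, 786 and 813 DLA-DQA1 CPM. The smallest of these gates held 14 cells. Each dog was above its own CD8A sp value there, whereas DLA-DRA was at 1478 ± 254 CPM. Cells with both CD4 and CD8A had 1516 ± 141 DLA-DRA CPM and cells with neither had 1541 ± 281 CPM. The former had the greater depth (median 5418 to 5955 UMIs against 3232 to 3625).

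Across single cells of a dog, thinned to 2000 UMIs, members rose and fell together weakly. Spearman's rho between DLA-DRA and CD74 was 0.307 to 0.354 over the 4 dogs in CD4 sp cells (8377 cells) and 0.221 to 0.342 in CD8A sp cells (5395 cells). Between DLA-DRA and DLA-DQA1 it was 0.147 to 0.224 and 0.143 to 0.197. Cells of a dog share a library, and at counts of this size the values describe these cells only. The variance of thinned counts was 2.42 times the mean for CD74, 1.48 times for DLA-DRA and 1.35 times for DLA-DQA1 in CD4 sp cells (means of 4 dogs).

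Likeness of pattern was measured as Pearson's r of log2(CPM + 1), centred within dogs, over 39 sums of the 10 classes and 4 dogs, among 6538 genes with a mean of at least 10 CPM. The sums of a dog share a library, and the values are a description. The gene most like DLA-DRA outside the members was EML4 (r = 0.675), followed by DDOST (0.656), RGS3 (0.650), PARVG (0.650) and CORO1B (0.649). DLA-DQB1 (0.817), DLA-DQA1 (0.774) and CD74 (0.733) were more like it than EML4, and DLA-DMB (0.665) was less so. Outside the class II genes, DLA-DQA1 was most like CORO1B (0.874), an actin regulator, then INPP5D (0.822), CD63 (0.801), FLII (0.792) and DNAJC16 (0.790). Among the class II genes DLA-DMB was at 0.834, DLA-DQB1 at 0.826, DLA-DRA at 0.774, CD74 at 0.721 and DLA-DOA at 0.222. CD74 was most like CORO1B (0.751), PRR5 (0.727), ARMC9 (0.727), ITGB7 (0.725) and RBP4 (0.657). The class II genes DLA-DRA (0.733), DLA-DQA1 (0.721), DLA-DMB (0.712) and DLA-DQB1 (0.699) were all less like CD74 than CORO1B was. DLA-DOA had an r of 0.321 with DLA-DRA and of -0.116 with CD74.

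The transcriptional regulators of class II were detected in both lineages. CIITA, the master switch, was at 37.0 ± 6.78 CPM in CD4 sp and 41.2 ± 7.96 CPM in CD8A sp cells (log2 fold change -0.14 ± 0.0622, adjusted p = 0.151), and RFX5, which binds the class II promoters, at 45.4 ± 4.55 and 44.7 ± 2.81 CPM. None of 8 regulators was called in edgeR's test between CD4 sp and CD8A sp cells or with CCR7, with 0 (lineage), 3 (CCR7, CD4 sp) and 0 (CCR7, CD8A sp) at an unadjusted p below 0.05. Of all genes, 8.31% to 13.6% were called in each direction there. In MKI67+ CD8A sp cells CIITA was lower (log2 fold change -0.84 ± 0.254, adjusted p = 0.0163), 1 of 8 where 11.3% of 7997 genes were. In MKI67+ CD4 sp cells NFYC (0.38 ± 0.134, adjusted p = 0.0345) and NFYB (0.86 ± 0.322, adjusted p = 0.0438), subunits of the factor NF-Y, were higher, 2 of 8 where 15.3% of 9588 genes were. The opposite direction held 0 of 8 in each, where 14.0% (CD8A sp) and 12.9% (CD4 sp) of genes were called. The FOXP3 and GZMB gates called none of the 8, with 1 at an unadjusted p below 0.05 in each of these 4 comparisons, where 0.484% to 9.24% of all genes were called in each direction.

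Of 8 genes of class II processing and turnover, 4 were lower in CCR7+ CD4 sp cells and 0 higher, where 13.0% and 10.1% of all genes tested were (median log2 fold change -0.22). These were the proteases CTSD (-0.62 ± 0.0594, adjusted p = 1.43e-06), CTSS (-0.31 ± 0.0795, adjusted p = 0.00912) and CTSH (-0.66 ± 0.231, adjusted p = 0.0499) and the thiol reductase IFI30 (-0.59 ± 0.0611, adjusted p = 3.67e-06). In CD8A sp cells 5 could be tested, of which CTSD (-1.28 ± 0.107, adjusted p = 9.55e-09) and CTSS (-0.83 ± 0.154, adjusted p = 0.000383) were lower and CTSB (0.83 ± 0.112, adjusted p = 8.10e-06) was higher with CCR7 (8.50% and 8.31% of all genes). Between CD4 sp and CD8A sp cells 3 were higher and 2 lower in CD4 sp cells (13.6% and 13.5% of all genes), among them CTSB (1.35 ± 0.0665, adjusted p = 6.97e-06), IFI30 (1.13 ± 0.0655, adjusted p = 1.53e-05) and CTSD (-1.41 ± 0.0986, adjusted p = 3.40e-05). GZMB+ and MKI67+ CD4 sp cells had 3 and 4 of the 8 higher and 0 lower, each with CTSD, CTSS and IFI30, where 5.91% and 15.3% of all genes were higher and 3.69% and 12.9% lower.

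Of 12 genes of class I presentation, 10 were lower in CCR7+ CD4 sp cells and 0 higher, where 13.0% and 10.1% of all genes tested were (median log2 fold change -0.15). The 10 were B2M, the light chain of class I (-0.17 ± 0.0216, adjusted p = 2.87e-05), the class I heavy chain DLA88 (-0.14 ± 0.0245, adjusted p = 0.000474), TAPBP (-0.30 ± 0.0333, adjusted p = 5.97e-06), NLRC5, TAP1, ERAP1, PDIA3, PSMB9, PSMB10 and DLA-64, a heavy chain whose identifier is DLA-12 in the list of dog 1. In CD8A sp cells 6 were lower (B2M, DLA88, DLA-64, CALR, NLRC5 and TAPBP) and DLA-79 was higher (0.22 ± 0.0674, adjusted p = 0.0254), where 8.50% and 8.31% of all genes were, with a median of -0.25 over the 12. The other 5 did not pass. Some heavy chain genes are near-identical copies, and reads may have been split between those. Whether this touched any value given here was not tested. Between CD4 sp and CD8A sp cells 4 were lower and 1 higher in CD4 sp cells (13.5% and 13.6% of all genes), and with GZMB in CD8A sp cells 5 were higher and 1 lower (9.24% and 8.84%).

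Of 7 genes of the interferon-gamma route, IFNG (-1.52 ± 0.191, adjusted p = 2.31e-05), its receptor chain IFNGR1 (-0.54 ± 0.0412, adjusted p = 2.18e-07) and IRF2 were lower and JAK1 was higher in CCR7+ CD4 sp cells, where 13.0% and 10.1% of all genes were. In CD8A sp cells IFNG (-1.40 ± 0.326, adjusted p = 0.00347) and IRF1 were lower and JAK1 and JAK2 were higher with CCR7, where 8.50% and 8.31% of all genes were. Among T cell activation genes, CCR7+ CD4 sp cells had IL2RA, CD44, CD28 and ICOS lower and CD69 and CD38 higher, of 9 tested (13.0% and 10.1% of all genes). In CCR7+ CD8A sp cells CD44 and CD38 were lower and CD28, ICOS, CD69 and CD40LG higher, of 6 tested (8.50% and 8.31% of all genes).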

How the data were processed

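Canine TCRαβ+ T cells of 4 dogs were profiled with a 5′ droplet kit. The authors deposited, per dog, a matrix of raw UMI counts (genes by barcodes) from Cell Ranger 5.0.1 on CanFam 3.1, and a table of productive TRA and TRB rearrangements whose UMI counts per the file headers are whole numbers. The rearrangements served only to leave out cells with more than 1 TRB chain in an alternative. Cells with 500 to 20000 UMIs and at most 10% mitochondrial UMIs were kept. No doublet caller was run. UMIs were summed per dog and gate where at least 10 cells were present on both sides in at least 3 dogs, and tested with edgeR 4.0.16 (quasi-likelihood, TMM, filterByExpr, R 4.3.3), with Benjamini-Hochberg adjustment over all genes tested and a threshold of 0.05. Both sides of each comparison came from the same animals, so the dog was a block. CPM were computed from the summed UMIs as a gene's UMIs divided by all UMIs of the sum, times 1000000. SEs were derived from the F statistic. The test was run on simulated data for the CCR7 comparisons in CD4 sp and CD8A sp cells only. The other gates, the lineage comparison and the interactions were not simulated.

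Alternatives for the tests were DESeq2 1.42.0, library totals in place of TMM, no filter on low counts, gates at 2 UMIs, cells thinned to 2000 UMIs and no block. In further alternatives, cells with a B cell or myeloid marker, cells with more than 1 TRB chain, or each dog in turn were left out. A mitochondrial limit of 5% was applied to the CPM levels only and not to the tests. Comparisons of the lineages within CCR7+, CCR7- and gate-negative cells were added after seeing the data. The members and gene lists were chosen with earlier results of these data known. The genes named were every member, each list gene that passed in a CCR7 comparison, at most 3 per list elsewhere, and the 5 genes most like DLA-DRA, DLA-DQA1 and CD74. Gates rest on transcripts, so a cell without a UMI may still carry the protein. Cells with fewer than 2000 UMIs were left out wherever cells were thinned. For the tests and the measures across single cells the gates were set anew on thinned counts, and for the shares of cells they were not. Sequences of the members were not used here, and CTSL, IFNGR2, TAP2, PSMB8 and DLA-12 were not analysed here. Python 3.11.15, numpy 2.4.6, scipy 1.17.1 and pandas 2.3.3 were used.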

Additional observations from a re-analysis of the deposited data

Results flagged for a closer look

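Over 102 groups of 4 dogs, 5 had a dog far from the others by the ratio of its gap to the nearest dog to the whole range (Dixon's test), where chance gives about 1 in 20. For DLA-DRA in CD8A sp cells dog 4 was highest at 1759 CPM, with a ratio of 0.861. The ratio was 0.840 in FOXP3- and 0.923 in MKI67- CD8A sp cells, which are largely the same cells. For DLA-DMB in GZMB+ CD4 sp cells dog 4 stood at 334 CPM with a ratio of 0.860. For DLA-DOA in MKI67+ CD4 sp cells the ratio was 1, since only dog 2 had a UMI. In 24 pairs of changes looked at, none was found in opposite directions in all dogs of the lineages. The pairs of DLA-DOA with GZMB and with MKI67 could not be judged, as only 2 dogs and 1 dog had a ratio in CD4 sp cells.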

How the results depend on the processing

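No called change of a member or of DLA-DQB1 changed sign. Over the changes of single genes, 876 values kept their side of the threshold, 41 lost it and 9 gained it. DLA-DOA kept its calls between lineages (log2 fold change -3.26 to -2.18), with CCR7 (2.01 to 2.51) and GZMB (-1.39 to -1.06) in CD8A sp cells under all alternatives in which it was tested. With CCR7 in CD4 sp cells (0.95 to 1.26) it lost the call only without the block. The GZMB comparison in CD8A sp cells was not run with CCR7+ cells left out, so its DLA-DOA call was not tested apart from CCR7. The main counts of genes called were 2744 (CD4 sp against CD8A sp), 2234, 1253, 913 and 2705 (CCR7, FOXP3, GZMB and MKI67 in CD4 sp cells), 1384, 111, 1620 and 2025 (the same in CD8A sp cells) and 246, 91, 190 and 61 (the 4 interactions), and values below are given only where a count moved by over 1.5 times. The cause of these moves was not tested.

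Without the replicate block for the dog, 1429 genes were called between lineages, 6, 480 and 193 with CCR7, FOXP3 and GZMB in CD4 sp cells, 756, 2 and 665 in CD8A sp cells, and 20, 15, 4 and 0 in the interactions. The members called then numbered 1 between lineages (3 with the block), 0 with CCR7 (5) and 0 with GZMB (1) in CD4 sp cells and 1 with GZMB (2) in CD8A sp cells. DESeq2 called 962, 753 and 495 genes with CCR7, FOXP3 and GZMB in CD4 sp cells, 803, 35 and 823 in CD8A sp cells (1 member with GZMB), and 155 and 145 in the FOXP3 and MKI67 interactions. With thinned cells these were 1009, 178, 63 and 391 with CCR7, FOXP3, GZMB and MKI67 in CD4 sp cells (0 members with GZMB and with MKI67), 616, 1078 and 324 with CCR7, GZMB (1 member) and MKI67 in CD8A sp cells, and 95, 10 and 4 in the CCR7, GZMB and MKI67 interactions. Gates at 2 UMIs gave 276 genes with GZMB in CD4 sp cells (0 members), 2 members with MKI67 in CD4 sp cells, 1 member each with GZMB and MKI67 in CD8A sp cells, and 147, 14 and 33 genes in the CCR7, GZMB and MKI67 interactions. Without a filter, 1 member was called with MKI67 in CD8A sp cells, and 267, 304 and 192 genes in the FOXP3, GZMB and MKI67 interactions. Leaving out cells with a B cell or myeloid marker gave 0 members with MKI67 in CD4 sp cells and 37 genes in its interaction. Leaving out cells with more than 1 TRB chain gave 0 members with MKI67 in CD4 sp and 1 in CD8A sp cells. The 1 member called with MKI67 in CD4 sp cells was DLA-DOA, which passed the filter on low counts only through MKI67- cells. In both these settings and with thinned cells it was too rare to be tested, so the 0 members there are not a lost call. Where it was tested, the member counts of this comparison include it. Between lineages, 644 of 8712 genes tested and 5 members were called in CCR7+ cells, and 1127 of 9149 genes tested in cells without a gate gene.

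Library totals in place of TMM called 2 members each with GZMB and MKI67 in CD4 sp cells. The share of higher calls went from 43.8% to 32.6% with CCR7 in CD4 sp cells, from 49.4% to 28.3% in CD8A sp cells (median of all genes 0.01 to -0.09), from 35.4% to 48.4% in the CCR7 interaction and from 79.1% to 68.9% in the FOXP3 interaction. Leaving out 1 dog gave 1 to 3 members between lineages, 0 to 2 and 1 to 2 with GZMB in CD4 sp and CD8A sp cells, 1335 to 2304, 610 to 1190 and 485 to 984 genes with CCR7, FOXP3 and GZMB in CD4 sp cells, 862 to 1342, 54 to 79, 1075 to 1449 and 1332 to 1862 with CCR7, FOXP3, GZMB and MKI67 in CD8A sp cells, and 79 to 223, 47 to 100, 33 to 186 and 0 to 26 in the interactions. The FOXP3 comparison in CD8A sp cells and its interaction were not run with thinned cells or gates at 2 UMIs, for want of dogs with 10 cells. Counts were low for DLA-DRB1, with 103 UMIs in all cells, and for DLA-DOA in the small CD4 sp gates. The cause of the low DLA-DRB1 count, beside the high DLA-DRA count of the same libraries, was not tested.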
